A study of Bos taurus with 22 samples.

Results

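The peptidases of the intestinal brush border were followed here as 9 genes chosen by symbol in the deposited count table of the bovine jejunal mucosa, out of 27570 genes in the table. They are the aminopeptidases ANPEP, ENPEP and XPNPEP2, the dipeptidyl peptidase DPP4, the peptidyl dipeptidase ACE, the meprin subunits MEP1A and MEP1B, the glutamate carboxypeptidase relative NAALADL1, and TMPRSS15, which encodes enteropeptidase. All 9 were in the table and all 9 passed the filter on low counts in every comparison, including ENPEP and NAALADL1, whose lowest steers held 6 and 8 counts. The question was whether casein infused into the abomasum of fed steers changed their mRNA.

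Holstein steers that were just under 1 year old were given raw corn starch into the abomasum at 3.94 g/kg of body weight a day for 7 d, and this starch was common to every treatment. Control steers (n = 5) received water in the abomasum and injections of the vehicle, which held bovine serum albumin (BSA). GLP-2 steers (n = 5) received water and 100 µg/kg of body weight a day of glucagon-like peptide 2, an intestinotrophic hormone, under the skin. Casein steers (n = 6) received sodium caseinate at 1.30 g/kg a day in the abomasum and the vehicle, and casein + GLP-2 steers (n = 6) received both. All steers were also fed a diet formulated to exceed their need for metabolizable protein, so casein came on top of dietary protein. The infusion was stopped before slaughter, and the paper holds it possible that the last casein had left the jejunum by then. The last injection was given on the day before sampling. In the pooled comparisons, 12 casein-infused steers were set against 10 water-infused steers, and 11 GLP-2-injected steers against 11 BSA-injected steers. Steers had been assigned to treatment within 6 blocks formed by body weight, and the block is the replicate number used here. Control and GLP-2 steers each lacked a library from 1 of the 6 blocks. Each library was made from mucosa scraped from the middle of the jejunum of 1 steer, so a sample can hold epithelium, lymphoid tissue and muscle in varying proportions.

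Dietary and endogenous proteins are first cut by gastric and pancreatic proteases, and the resulting peptides are trimmed at the enterocyte surface by enzymes anchored in the microvillus membrane. Aminopeptidases remove residues from the amino end, dipeptidyl peptidases release pairs of residues, and meprins cut within the chain. Enteropeptidase stands at the head of the cascade, because it activates trypsinogen, and the short peptides and amino acids released at the brush border are then taken up by transporters such as SLC15A1 and SLC6A19. These enzymes are typical of differentiated villus enterocytes and less so of the crypt.

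Library totals ran from 8809666 to 28447810 counts with a median of 12028560.5. Villus enterocyte genes varied widely between steers, and FABP2, a fatty acid binding protein of the enterocyte, ran from 467 CPM, the count scaled to the size of its library, in the lowest control steer to 29518 CPM in the highest casein + GLP-2 steer. ALPI, the intestinal alkaline phosphatase, was as low as 1.58 CPM and TMIGD1 was at 0 CPM in its lowest steer. The mean log2 CPM of 23 villus enterocyte markers, called the villus enterocyte score below, ran from 6.22 in control replicate 5 to 10.6 in casein + GLP-2 replicate 1. The summed level of B cell follicle markers ran from 77.4 to 1720.2 CPM in control, 53.8 to 2266 CPM in casein, 34.3 to 67.6 CPM in GLP-2 and 36.5 to 89.5 CPM in casein + GLP-2 steers. Single steers lay at both ends of the peptidase levels. Control replicate 5 held the lowest level of ANPEP, DPP4, ENPEP, MEP1A, MEP1B, ACE and TMPRSS15 among the 22 steers. GLP-2 replicate 3 held the highest level of ANPEP, ENPEP, ACE, XPNPEP2 and NAALADL1, and the main values that rest on it are also given without it. Fits that leave out each steer in turn are summarized at the end.

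Corrected for gene length, the peptidases differed widely in level. The FPKM values, which divide counts by gene length and library size, had medians over the 22 steers of 298 for ACE, 152 for ANPEP, 109 for MEP1A, 98.5 for DPP4 and 74.2 for MEP1B. The median FPKM was 23.5 for TMPRSS15, 16.7 for XPNPEP2, 5.22 for ENPEP and 0.979 for NAALADL1. ACE was the highest of the 9 in 16 of 22 steers, ANPEP in 5 and MEP1B in 1. Of the 8 neighbouring pairs in this order, 6 differed within steers by a permutation test that flipped the sign of the log2 FPKM difference (100000 resamples, adjusted over 8 pairs). MEP1A was above DPP4 in 11 of 22 steers (adjusted p = 0.486 by permutation) and TMPRSS15 was above XPNPEP2 in 15 of 22 (adjusted p = 0.0807 by permutation), so these pairs were not separated. ENPEP was above NAALADL1 in 18 of 22 steers by 2.01 ± 1.98 (SD) on the log2 FPKM scale (adjusted p = 0.00068 by permutation).

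**Figure D1:**
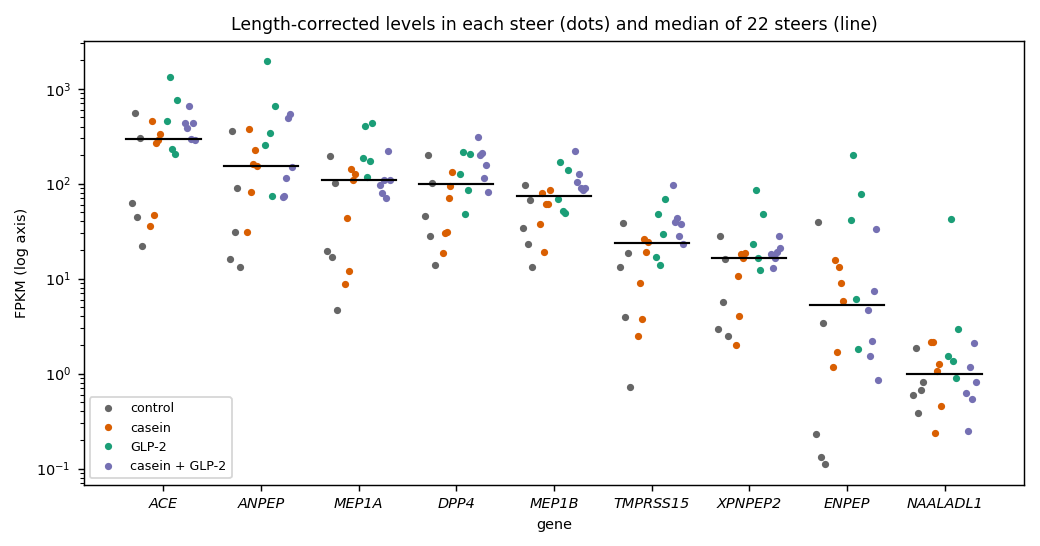
FPKM on a log axis for each of the 9 peptidases, ordered by the median over 22 steers (black lines), with 1 dot a steer coloured by treatment. ACE has the highest median at 298 FPKM and NAALADL1 the lowest at 0.979 FPKM, where a single GLP-2 steer lies far above the others.

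The genes lie on different chromosomes of the ARS-UCD1.2 assembly, as the deposited tables give them. ANPEP (ENSBTAG00000016881) spans chr21:21195680-21213021 on the minus strand and ENPEP (ENSBTAG00000008332) spans chr6:14912679-14992464 on the minus strand. XPNPEP2 (ENSBTAG00000010345) lies at chrX:13775714-13805036 on the plus strand and DPP4 (ENSBTAG00000048246) at chr2:34382575-34466656 on the plus strand. ACE (ENSBTAG00000024950) is at chr19:47798389-47819083, plus strand, MEP1A (ENSBTAG00000004345) at chr23:20023407-20049421, plus strand, and MEP1B (ENSBTAG00000020391) at chr24:24983757-25019913, minus strand, so the genes of the 2 meprin subunits are on separate chromosomes. TMPRSS15 (ENSBTAG00000000597) spans chr1:18567977-18710975 on the plus strand and NAALADL1 (ENSBTAG00000002249) spans chr29:43256742-43272965 on the minus strand. All 9 are annotated as protein coding, and the counts are per gene.

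No brush border peptidase passed the test between casein and water. By edgeR's quasi-likelihood test, 0 of 9 had an adjusted p of at most 0.05, as did 0 of all 14096 genes tested (0%), and the adjusted p was 0.994 for each of the 9. DESeq2 also called 0 of 9 (0.0355% of all genes), and so did limma on log2 FPKM. At an unadjusted p of at most 0.05, edgeR had 2 of 9, ENPEP and NAALADL1, both lower with casein, beside 3.36% of all genes and 1.84% in that direction. By the sign of the estimate 3 of 9 were higher with casein, beside 50.7% of all genes. The median log2 fold change of the 9 was -0.63, and that of all genes was 0.0032. Without GLP-2 replicate 3 the median of the 9 was 0.015, 5 were higher and 4 lower, and 0 of 9 reached an unadjusted p of 0.05 by edgeR (3.42% of all genes). With all steers and the replicate block in the fit, 0 of 9 reached it either (1.92% of all genes). The smallest unadjusted p of the 9 was then 0.176 by edgeR. The levels of casein-infused and water-infused steers overlapped for 9 of 9 peptidases, and so did those of GLP-2-injected and BSA-injected steers. Overlap was not counted over all genes, so it does not set casein apart.

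**Figure D2:**
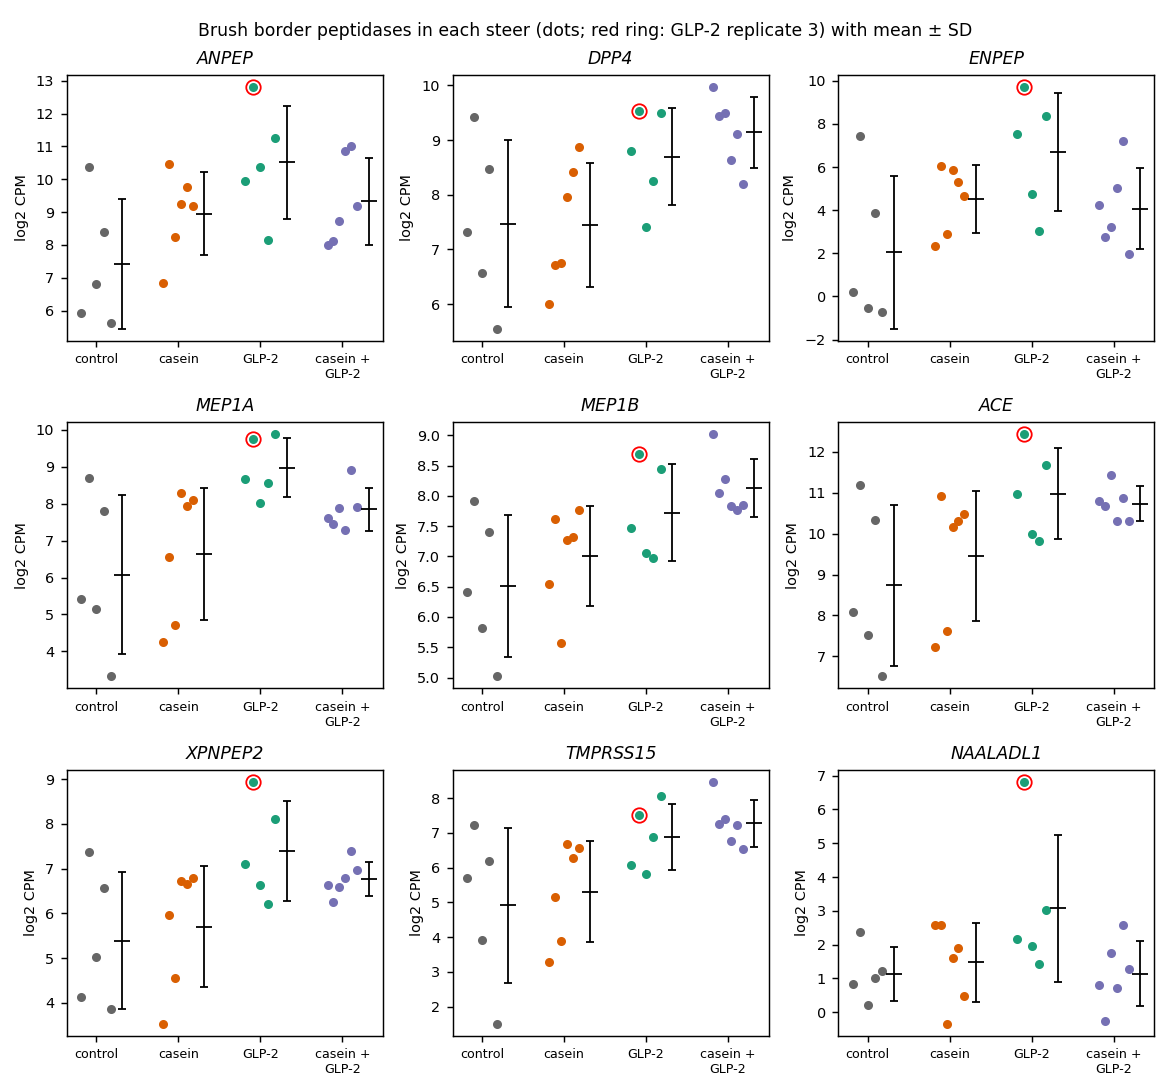
log2 CPM of each peptidase in every steer (dots) by treatment, with the mean and SD of each treatment in black and GLP-2 replicate 3 ringed in red. Steers of casein-infused and water-infused treatments overlap for every gene, and NAALADL1 is at 3.02 in GLP-2 replicate 6, the next highest steer, while the ringed steer is at 6.83.

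ANPEP, aminopeptidase N, removes neutral residues from the amino end of peptides and is among the most abundant proteins of the microvillus membrane. It stood at 61.2, 1340.0, 112, 339 and 48.9 CPM in control replicates 1 to 5 and at 989, 7238, 1326, 286 and 2466 CPM in GLP-2 replicates 1, 3, 4, 5 and 6. Casein steers ran from 114 to 1412 CPM with a median of 590.3, and casein + GLP-2 steers from 258 to 2073 CPM with a median of 505. Control replicate 2 lay within the upper range of the casein steers and the other control steers lay lower, while GLP-2 replicate 3 was 2.93 times the next steer. Casein against water gave a log2 fold change of -0.87 ± 0.68 (SE), with a 95% interval from -2.28 to 0.53, and 0.015 without GLP-2 replicate 3. With all steers the interval excludes a doubling by casein and includes a fall of more than 2-fold. Without GLP-2 replicate 3 the SE was 0.62, and a doubling was not excluded.

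ENPEP, glutamyl aminopeptidase or aminopeptidase A, removes acidic residues and also converts angiotensin II. Its level was 1.00, 171, 0.549, 14.7 and 0.465 CPM in control replicates 1 to 5 and 183, 849.9, 27.2, 8.05 and 332 CPM in GLP-2 replicates 1, 3, 4, 5 and 6. Casein steers held 4.99 to 66.9 CPM (median 32.5) and casein + GLP-2 steers 3.78 to 146 CPM (median 14.2). Control replicates 1, 3 and 5 lay below every casein-infused steer, and the highest water-infused steers lay above every casein-infused steer, so the water-infused steers were the more widely spread at both ends. Over the 22 steers the highest value was 1826 times the lowest, the widest range of the 9. The log2 fold change between casein and water was -2.20 ± 0.95 (SE), with an unadjusted p of 0.0304 by edgeR, and -1.23 (unadjusted p = 0.184 by edgeR) without GLP-2 replicate 3. The median CPM was 22.1 with casein and 20.9 with water, which does not follow the fitted direction, and the fit of limma on log2(FPKM + 0.1) gave -0.18.

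XPNPEP2, the membrane-bound aminopeptidase P, releases a residue that precedes proline. It was at 17.4, 165, 32.4, 94.96 and 14.4 CPM in control replicates 1 to 5, and at 137, 492, 99.7, 73.7 and 277 CPM in GLP-2 replicates 1, 3, 4, 5 and 6. Casein steers spanned 11.5 to 111 CPM (median 81.3) and casein + GLP-2 steers 76.2 to 167 CPM (median 106). The lowest steer of all was casein replicate 1, and the 6 casein + GLP-2 steers were held within 2.19-fold of each other. Casein against water was -0.63 ± 0.49 (SE) on the log2 scale, and -0.16 without GLP-2 replicate 3.

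DPP4, dipeptidyl peptidase 4, releases dipeptides that end in proline or alanine and also inactivates incretins and GLP-2 itself. Its CPM was 160.3, 686, 94.7, 355 and 46.8 in control replicates 1 to 5 and 443, 736, 171, 303 and 719 in GLP-2 replicates 1, 3, 4, 5 and 6. Casein steers ran from 63.6 to 467 CPM (median 178) and casein + GLP-2 steers from 293 to 1008 CPM (median 624). The 3 lowest of all were control replicate 5 and casein replicate 1, followed by control replicate 3, and the ranges of casein and control steers overlapped over most of their length. The casein against water log2 fold change was 0.18 ± 0.47 (SE), with a 95% interval from -0.78 to 1.14, and 0.33 without GLP-2 replicate 3.

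ACE, the angiotensin-converting enzyme, acts in the brush border as a peptidyl dipeptidase that removes dipeptides from the carboxyl end. Control replicates 1 to 5 held 271, 2342, 184, 1296 and 91.5 CPM, and GLP-2 replicates 1, 3, 4, 5 and 6 held 1999.7, 5520.1, 1012, 897 and 3269.8 CPM. Casein steers ran from 149.8 to 1935 CPM (median 1204) and casein + GLP-2 steers from 1261 to 2769 CPM (median 1712). Control replicates 1, 3 and 5 and the lowest casein steers formed a group well below the rest, and every GLP-2-injected steer lay above it. Casein against water was -0.28 ± 0.54 (SE) on the log2 scale and 0.14 without GLP-2 replicate 3.

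MEP1A and MEP1B encode the alpha and beta subunits of meprin, a zinc endopeptidase of which the beta subunit spans the membrane and the alpha subunit can be shed into the lumen. MEP1A was at 43.0, 419, 35.3, 222 and 9.93 CPM in control replicates 1 to 5 and at 410.1, 860.0, 259, 381 and 947 CPM in GLP-2 replicates 1, 3, 4, 5 and 6, with 18.9 to 313 CPM (median 169.8) in casein and 155 to 482 CPM (median 216) in casein + GLP-2 steers. MEP1B was at 85.4, 241, 56.2, 169 and 32.4 CPM in control replicates 1 to 5 and at 176, 414, 132, 125 and 346 CPM in GLP-2 replicates 1, 3, 4, 5 and 6, with 47.2 to 216 CPM (median 157) in casein and 216 to 518 CPM (median 248) in casein + GLP-2 steers. The alpha subunit reached its highest levels with GLP-2 alone, whereas the beta subunit was high both with GLP-2 alone and with casein + GLP-2. The log2 fold change between casein and water was -0.81 ± 0.57 (SE) for MEP1A. It was 0.31 ± 0.38 (SE) for MEP1B, whose 95% interval ran from -0.46 to 1.09. Without GLP-2 replicate 3 the values were -0.56 for MEP1A and 0.53 for MEP1B. The difference between the 2 subunits in this response was not tested.

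TMPRSS15, enteropeptidase, cleaves trypsinogen to trypsin. It stood at 51.8, 149, 15.1, 73.2 and 2.71 CPM in control replicates 1 to 5 and at 67.7, 184, 56.0, 118 and 267 CPM in GLP-2 replicates 1, 3, 4, 5 and 6. Casein steers held 9.56 to 101 CPM (median 56.4) and casein + GLP-2 steers 92.5 to 355 CPM (median 151). Control replicate 5 was far below the others and casein + GLP-2 replicate 1 was the highest. The casein against water log2 fold change was 0.22 ± 0.56 (SE), with a 95% interval from -0.93 to 1.37, and 0.35 without GLP-2 replicate 3.

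NAALADL1 encodes a membrane peptidase related to glutamate carboxypeptidase II and was the scarcest of the 9. Control replicates 1 to 5 held 1.65, 5.03, 1.02, 1.86 and 2.17 CPM, and GLP-2 replicates 1, 3, 4, 5 and 6 held 4.31, 113, 3.78, 2.52 and 8.01 CPM. Casein steers ran from 0.651 to 5.90 CPM (median 3.27) and casein + GLP-2 steers from 0.693 to 5.83 CPM (median 1.95). GLP-2 replicates 1, 4, 5 and 6 lay above every control steer but control replicate 2, while the ranges of the treatments overlapped. A single steer, GLP-2 replicate 3, was 14.1 times the next highest, and the remaining 21 steers lay between 0.651 and 8.01 CPM. The casein against water log2 fold change of -2.31 ± 0.73 (SE; unadjusted p = 0.0044 by edgeR) became -0.19 (unadjusted p = 0.659 by edgeR) without that steer. DESeq2, which replaces counts it finds to be extreme in groups of this size, gave -0.17.

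**Figure D3:**
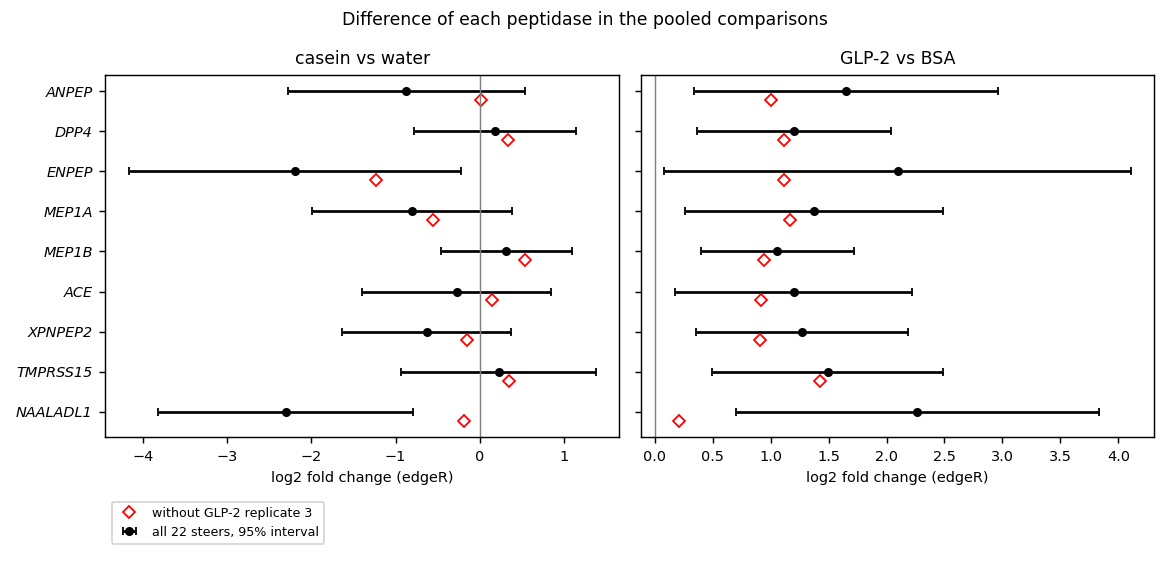
log2 fold change of each peptidase for casein against water (left) and GLP-2 against BSA (right), with 95% intervals from all 22 steers (black) and the estimate without GLP-2 replicate 3 (red diamonds). Leaving out this steer moves NAALADL1 from -2.31 to -0.19 on the left and from 2.27 to 0.21 on the right, and the diamonds of all 9 genes lie above 0 on the right.

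The precision of the casein comparison was limited by the spread between steers. The paper reports that RNA integrity varied between samples, and its part in this spread was not tested. The 95% interval of 6 of the 9 peptidases excluded a doubling, that of 3 excluded a halving, and that of 0 lay within 2-fold in both directions. A change of 2-fold in 1 direction is therefore not excluded for any of the 9. These intervals are from all steers, and the exclusion of a doubling rests on GLP-2 replicate 3 for at least ANPEP and ACE. Without that steer ACE stood at 0.14 ± 0.53 (SE) on the log2 scale, and a doubling was not excluded.

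Casein was next compared within each injection in a model of the 4 treatments (15086 genes tested). Between casein and control, 0 of 9 peptidases were called by edgeR (0% of all genes), 0 of 9 reached an unadjusted p of 0.05 (5.66% of all genes), and DESeq2 called 0 of the 8 for which it gave an adjusted p (0.0663% of all genes). In this comparison 6 of 9 were higher (51.4% of all genes) and 3 lower, with a median log2 fold change of 0.15, from -0.27 for DPP4 to 0.77 for ANPEP. Without control replicate 2, the control steer with the highest villus enterocyte score, all 9 were higher with casein with a median of 0.96, 0 of 9 were called (0% of all genes) and 2 of 9 reached an unadjusted p of 0.05 by edgeR (9.46% of all genes tested).

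Between casein + GLP-2 and GLP-2, 0 of 9 were called by edgeR (0%) and 0 of 8 by DESeq2 (0.0331% of all genes), and 3 of 9 were higher with casein (48.6% of all genes). At an unadjusted p of at most 0.05, edgeR had 2 of 9, both lower with casein, beside 2.64% of all genes and 1.79% in that direction. ENPEP had a log2 fold change of -2.95 ± 1.31 (SE) and NAALADL1 of -3.38 ± 0.87 (SE) in this comparison. Without GLP-2 replicate 3 the values were -1.93 and -0.87, and 0 of 9 reached an unadjusted p of 0.05 by edgeR (2.99% of all genes).

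For the casein by GLP-2 interaction, 0 of 9 were called by edgeR (0%) and 0 of 8 by DESeq2 (0.0133% of all genes), and the estimate was above 0 for 2 of 9 (47.3% of all genes). In the main fit NAALADL1 was the 1 peptidase with an unadjusted p of at most 0.05 by edgeR (4.28% of all genes, 2.59% in its direction). It was at -3.90 ± 1.21 (SE) on the log2 scale and -1.34 without GLP-2 replicate 3, where 0 of 9 reached that p (4.85% of all genes). With the replicate block 3 of 9 did, all below 0 (3.31% of all genes, 2.05% in that direction). Without control replicate 2 there were 4 of 9, all below 0 (4.2% of all genes, 2.3% in that direction). In each of these fits 0 of 9 were called. DESeq2 gave no adjusted p for NAALADL1 in the model of 4 treatments.

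The injection was compared in the same way. All 9 peptidases were higher in GLP-2-injected than in BSA-injected steers, with a median log2 fold change of 1.37 beside 0.0079 for all 13928 genes tested, of which 50.7% were higher. MEP1B, TMPRSS15 and NAALADL1 passed an adjusted p of 0.05 by edgeR, which is 3 of 9 beside 13.5% of all genes and 5.13% in that direction. At an adjusted p of at most 0.1 there were 8 of 9 (26.1% of all genes, 11.9% in that direction), with ENPEP at 0.130, and unadjusted p was at most 0.05 for 9 of 9 (34.6% of all genes, 16.5% in that direction). DESeq2 called 6 of 9 (21.5% of all genes). In bulk mucosa, more cells of a type and more mRNA per cell cannot be told apart.

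MEP1B rose by 1.06 ± 0.32 (SE; adjusted p = 0.0356 by edgeR) and TMPRSS15 by 1.49 ± 0.48 (SE; adjusted p = 0.0438 by edgeR) on the log2 scale. NAALADL1 rose by 2.27 ± 0.76 (SE; adjusted p = 0.0484 by edgeR) with GLP-2 replicate 3 and stood at 0.21 without it, and DESeq2, with extreme counts replaced, gave 0.20. DPP4 just missed the threshold at 1.20 ± 0.41 (SE; adjusted p = 0.0504 by edgeR), followed by XPNPEP2 at 1.27, ANPEP at 1.65, MEP1A at 1.37 and ACE at 1.20. Among the 11 GLP-2-injected steers, 6 lay above the highest BSA-injected steer for TMPRSS15 and 5 for DPP4 and MEP1B. Calls over all genes moved with these settings too. With the replicate block in the fit, 0 of 9 were called (4.95% of all genes) and 7 of 9 reached an unadjusted p of 0.05 by edgeR (33.2% of all genes), MEP1B at an adjusted p of 0.0510 and TMPRSS15 at 0.0597. Without GLP-2 replicate 3, 0 of 9 were called (6.42% of all genes) and 5 of 9 reached an unadjusted p of 0.05 by edgeR (30.4% of all genes), with a median log2 fold change of 1.00. Without control replicate 2, 9 of 9 were called, beside 25% of all genes and 12% in that direction, or 3516 genes where 1881 were called with all steers.

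Within each infusion, 0 of 9 were called by edgeR (0% in both), and DESeq2 called 0 of 8 between GLP-2 and control (1.92% of all genes) and 0 of 8 between casein + GLP-2 and casein (5.91%). Between GLP-2 and control all 9 were higher (52.6% of all genes), 6 of 9 at an unadjusted p of at most 0.05 by edgeR (13.9% of all genes, 5.59% in that direction), with a median log2 fold change of 1.74. Without GLP-2 replicate 3 the median was 1.12 and 1 of 9, MEP1A, reached an unadjusted p of 0.05 by edgeR (10.1% of all genes, 3.31% in that direction), while NAALADL1 went from 3.50 to 0.98. Without control replicate 2, 3 of 9 were called, ANPEP, ENPEP and NAALADL1, beside 2.79% of all genes and 0.962% in that direction. Between casein + GLP-2 and casein, DPP4, MEP1B and TMPRSS15, 3 of 9, reached an unadjusted p of 0.05 by edgeR (24.1% of all genes, 9.88% in that direction), with log2 fold changes of 1.46 ± 0.56, 1.03 ± 0.44 and 1.63 ± 0.67 (SE). In that comparison 8 of 9 were higher (48.1% of all genes). These comparisons share no steers with each other.

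The villus enterocyte score moved with the injection too. It was 8.47 ± 1.23 (SD, n = 11) with BSA and 9.63 ± 0.63 (SD, n = 11) with GLP-2. Of its 23 genes 4 rose, LCT, SLC5A1, CDHR2 and MYO1A, and 0 fell by edgeR (13.5% of all genes called, 5.13% called higher). SLC5A1 alone was called once GLP-2 replicate 3 was left out (6.42% of all genes). Of the 10 tested B cell follicle markers, 9 fell with GLP-2, and the mean log2 CPM of the list was 3.65 ± 2.33 (SD) with BSA and 0.99 ± 0.60 (SD) with GLP-2. With the villus enterocyte score in the fit, 0 of 9 peptidases and 0 of all 13928 genes were called, 1 of 9 reached an unadjusted p of 0.05 by edgeR (6.63% of all genes), and the median log2 fold change of the 9 was 0.56. With the follicle score in the fit, 0 of 9 and again 0 of all genes were called, 0 of 9 reached an unadjusted p of 0.05 by edgeR (2.54% of all genes), and the median was 0.40. The casein-infused and water-infused steers had villus enterocyte scores of 9.12 ± 1.08 (SD, n = 12) and 8.97 ± 1.22 (SD, n = 10). By sign, 10 of 10 smooth muscle markers were lower with casein than with water (median log2 fold change -0.82). Of the 11 B cell follicle markers tested there, 10 were lower (median -0.72) and 1 was higher. In both lists 0 reached an unadjusted p of 0.05 by edgeR (3.36% of all genes). Among GLP-2-injected steers 4 of 10 smooth muscle markers did, all lower with casein (2.64% of all genes), and the list median was -1.68. The part of tissue composition in these results was not tested further.

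Across the 22 steers the peptidases followed the villus enterocyte score to very different degrees. Pearson's r was 0.97 for TMPRSS15, 0.95 for DPP4, 0.90 for MEP1B, 0.88 for ACE, 0.84 for MEP1A and 0.81 for XPNPEP2, each with an adjusted p of 1.5e-05 by permutation, from the smallest p of 1e-05 that 100000 resamples can give (9 relations). Spearman's rho was 0.92, 0.94, 0.91, 0.76, 0.56 and 0.62 for the same genes, with adjusted p from 3e-05 to 0.0103 by permutation. ENPEP and ANPEP had r of 0.57 and 0.56 (adjusted p = 0.0073 and 0.00801 by permutation) and rho of 0.43 and 0.36 (adjusted p = 0.063 and 0.11 by permutation). NAALADL1 had r of 0.20 (adjusted p = 0.368 by permutation) and rho of 0.07 (adjusted p = 0.766 by permutation). Steers were permuted across treatments and blocks, so these p-values do not separate the relation from a difference between treatments that score and peptidase share.

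The relation held within both injections for some of the genes. After the 2 steers farthest from the median score were left out, r was 0.94 for TMPRSS15, 0.93 for DPP4, 0.91 for MEP1B, 0.79 for ACE, 0.69 for MEP1A, 0.67 for XPNPEP2, 0.42 for ENPEP and 0.30 for ANPEP. Within the 11 GLP-2-injected steers r was 0.92 for DPP4, 0.91 for MEP1B, 0.90 for TMPRSS15 and 0.62 for ACE. It was 0.23 for XPNPEP2, 0.07 for ENPEP, 0.05 for MEP1A and -0.14 for ANPEP in the same steers, while within the 11 BSA-injected steers it was 0.89, 0.70, 0.94 and 0.70 for these genes. For these 4 genes r was thus lower among GLP-2-injected steers, whose scores spanned a narrower range, and the difference between the injections was not tested. With the B cell follicle score r over all steers was -0.88 for MEP1B, -0.86 for ACE, -0.81 for MEP1A and -0.79 for TMPRSS15. It was -0.77 for XPNPEP2, -0.76 for DPP4, -0.67 for ENPEP, -0.66 for ANPEP and -0.40 for NAALADL1. Within BSA-injected steers ENPEP and ANPEP had -0.88 and -0.77 with that score, and 0.05 and 0.10 within GLP-2-injected steers. Both scores and the members come from the same libraries.

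**Figure D4:**
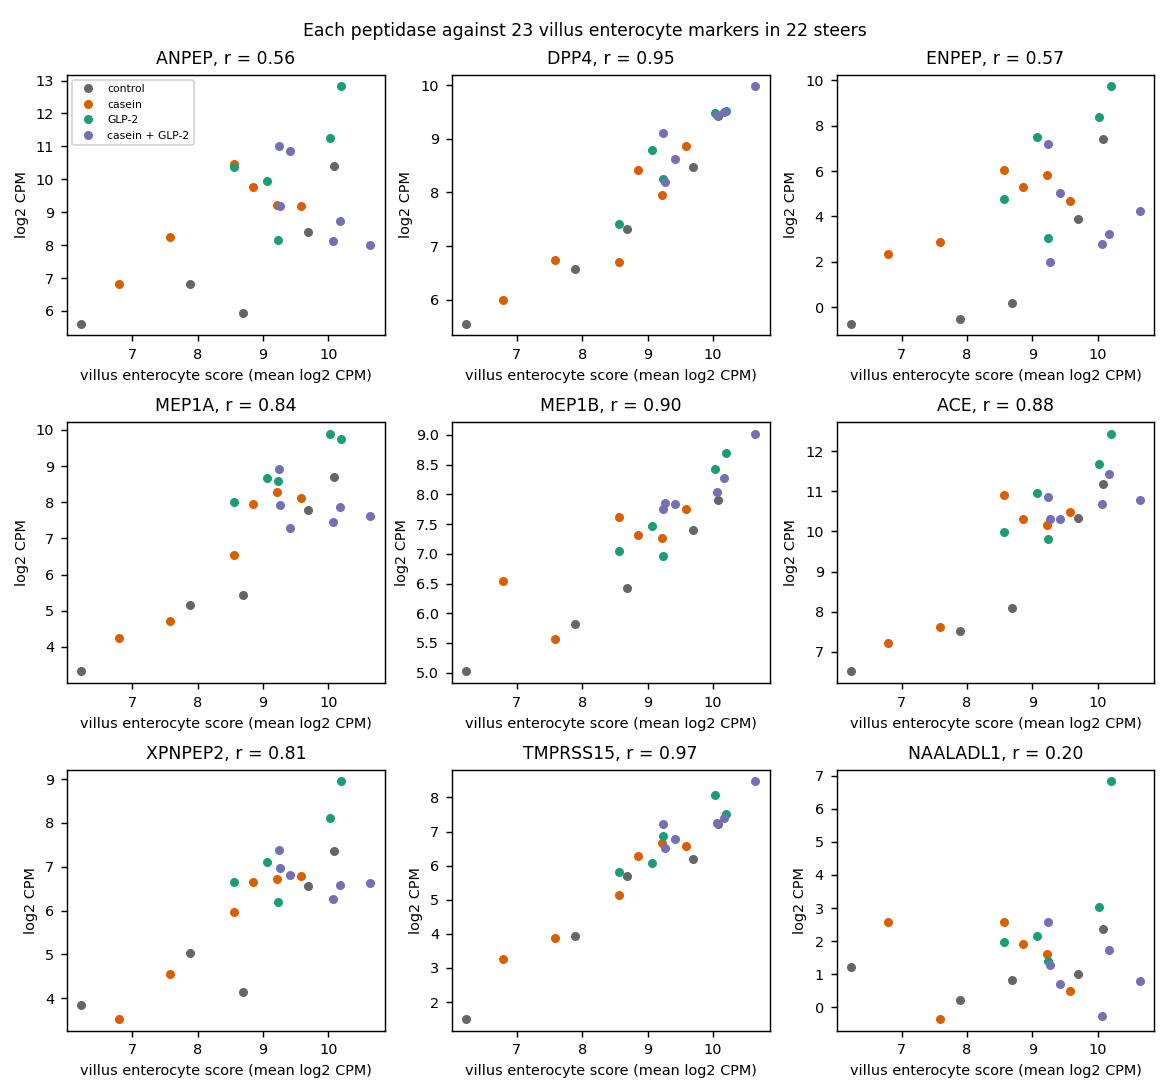
log2 CPM of each peptidase (vertical) against the villus enterocyte score (horizontal, mean log2 CPM of 23 markers) in 22 steers coloured by treatment, with Pearson's r in each title. TMPRSS15 (0.97) and DPP4 (0.95) lie close to a line, ANPEP (0.56) and ENPEP (0.57) fan out at high scores, and NAALADL1 (0.20) shows no line.

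Among themselves the peptidases correlated with a median r of 0.81 over 36 pairs, from 0.23 between DPP4 and NAALADL1 to 0.95 between MEP1A and XPNPEP2. The aminopeptidases ANPEP and ENPEP had an r of 0.91 with each other (0.87 without the 2 farthest steers, 0.96 within BSA and 0.85 within GLP-2), and DPP4 and TMPRSS15 had 0.94 (0.92, 0.93 and 0.87). Between DPP4 and ANPEP r was 0.58 over all steers, 0.67 within BSA-injected and -0.01 within GLP-2-injected steers. MEP1A and MEP1B had an r of 0.81 over all steers, 0.90 within BSA-injected and 0.13 within GLP-2-injected steers. These are descriptions of steers that share libraries and treatments.

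The genes most like each peptidase were looked up among 13245 genes by Pearson's r of log2 CPM over the 22 steers. For ANPEP they were ENPEP (0.91), SLC7A8 (0.90) and SLC6A19 (0.89), the latter both amino acid transporters. ENPEP was most like ANPEP (0.91), UCP3 (0.90) and SLC7A8 (0.90). DPP4 was most like B4GALT5 (0.97), FRK (0.97) and RETSAT (0.97), and TMPRSS15 most like ENPP3 (0.97), EDN3 (0.97) and SCP2 (0.97). MEP1A and XPNPEP2 each had the other first (0.95), with PDZK1 (0.94) and ACE (0.92) next for MEP1A and ACE (0.93) and ENPP7 (0.92) next for XPNPEP2. MEP1B was most like DAB1 (0.97), ABCG8 (0.97) and BBOX1 (0.96), ACE most like GSDME (0.96), A1CF (0.95) and NEDD4L (0.95), and for NAALADL1 SLC26A6 (0.87) and FBXO25 (0.82) were among the most like. Spearman's rho of these pairs ran from 0.69 for MEP1A with ACE to 0.98 for DPP4 with FRK. It was 0.73 for XPNPEP2 with ACE and 0.76 for MEP1A with PDZK1.

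The rest of the protein digestion pathway was examined from lists. Between casein and water 0 genes were called by edgeR in any list. At an unadjusted p of at most 0.05 by edgeR there were 3.36% of all genes, and 1.84% of all genes lower with casein. Of 11 other membrane peptidases there was 1, lower with casein, DPEP1, a membrane dipeptidase, at -1.11 ± 0.35 (SE) on the log2 scale. Of 18 cytosolic peptidases there were 0, of 12 lysosomal proteases 1, CTSD at -0.71, and of 3 tested pancreatic proteases 0. Of 11 peptide and amino acid transporters there were 3, all lower with casein, namely SLC7A9 at -1.81, SLC7A8 at -1.46 and SLC3A2 at -0.998. In the comparison of casein + GLP-2 with GLP-2, 6 of 12 transporters reached an unadjusted p of 0.05 by edgeR, all lower with casein (2.64% of all genes, 1.79% in that direction), and in casein against control 0 of 12 did. With GLP-2 replicate 3 left out, 0 of 12 transporters reached it in either the pooled comparison or that of casein + GLP-2 with GLP-2, and SLC7A9 stood at -0.35, SLC7A8 at -0.66 and SLC3A2 at -0.44 between casein and water. DPEP1 at -0.92 and CTSD at -0.75 still had an unadjusted p of at most 0.05 by edgeR without that steer. The median log2 fold change between casein and water was -0.56 for the transporters (-0.034 without that steer), 0.15 for the other membrane peptidases, -0.10 for the cytosolic peptidases and -0.02 for the lysosomal proteases.

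GLP-2 replicate 3 was also the highest of 22 steers for SLC15A1, the proton-coupled peptide transporter, at 1511 CPM beside 192 CPM for the median of the other steers. It was the highest for SLC6A19, the main neutral amino acid transporter, at 975 beside a median of 27.7 CPM, for SLC7A9 at 195 beside 4.42 CPM and for SLC7A8 at 744 beside 45.4 CPM. Among the listed transporters it ranked 2 for SLC6A20, 7 for SLC36A1, 8 for CLTRN and 14 for SLC16A10, and it was the highest for the others. Its FABP2 level of 27120.0 CPM ranked 2 of 22, and its level of APOA4, an apolipoprotein, ranked 6. KRT20, a keratin of the differentiated villus, was also highest there at 5143 CPM, beside 5055 CPM in the next steer.

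With GLP-2 against BSA, edgeR called 13.5% of all genes, and 5.13% of all genes as higher. No list was tested against that share. Of 11 other membrane peptidases 2 rose, ST14 by 0.53 and TMPRSS2 by 0.77, both membrane serine proteases. Of 18 cytosolic peptidases NPEPPS rose by 0.52 and DPP8 by 0.66, while THOP1 fell by 0.94. Of 11 transporters 3 rose, SLC3A1 by 1.22, SLC7A9 by 2.49 and SLC36A1 by 1.24. Among the enterocyte transcription factors, HNF4G rose by 0.93, MAF by 0.87, GATA6 by 0.83 and HNF4A by 0.80. When GLP-2 replicate 3 was left out, NPEPPS (0.47), DPP8 (0.66), SLC3A1 (1.07) and GATA6 (0.80) were still called by edgeR, and the other genes named from these lists were not, SLC7A9 standing at 1.29. Of 12 lysosomal and 3 pancreatic proteases 0 were called by edgeR, with 3 and 1 at an unadjusted p of at most 0.05 (34.6% of all genes). The median log2 fold change between GLP-2 and BSA was 1.22 for the transporters (0.84 without that steer), 0.59 for the other membrane peptidases, 0.21 for the cytosolic peptidases and 0.11 for the lysosomal proteases.

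Among the markers of other tissue, 3 of 11 pan-epithelial genes rose with GLP-2, EPCAM, CDH1 and CLDN7, and 3 of 11 crypt and proliferation genes fell, AURKB, BIRC5 and CCNB1. Over all genes 13.5% were called by edgeR and 5.13% were called higher. Of 11 T cell markers CD5 fell, and of 9 macrophage markers MRC1 rose. After GLP-2 replicate 3 was left out, CLDN7, AURKB and CD5 were still called by edgeR and the other named genes of these lists were not. Of 10 endothelial markers 0 were called by edgeR, with 2 at an unadjusted p of at most 0.05 (34.6% of all genes), and of 10 smooth muscle markers 0, with 4. Of 4 tested ileal bile acid genes FABP6, the ileal bile acid binding protein, fell by 4.43 between the pooled groups. It reached 221 CPM in the highest control steer and 2.98 CPM in GLP-2 replicate 3, the highest GLP-2 steer. The median of the steers other than GLP-2 replicate 3 was 1.38 CPM, so the high value is not that of a typical steer. The part of these tissue markers in the level of the peptidases was not tested beyond the fits with a score given above.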

How the data were processed

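RNA-seq of jejunal mucosa from 22 Holstein steers was analysed. The authors aligned strand-specific poly(A) reads to ARS-UCD1.2 with HISAT2 2.0.5 and deposited raw counts per gene from featureCounts 1.5.0-p3. The authors also deposited FPKM values, which equal counts over length and library total times a factor for each steer from 0.798 to 1.37, so that levels between genes were compared within a steer. No pair of libraries was identical. The deposited tables also hold gene names, coordinates and lengths, used as given.

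R 4.3.3 with edgeR 4.0.16 kept genes by filterByExpr (minimum count 10) and applied TMM normalization and the quasi-likelihood test with Benjamini-Hochberg adjustment over all genes tested. Casein against water and GLP-2 against BSA were fitted as pooled groups, and a model of 4 treatments gave the other contrasts. DESeq2 1.42.0 and limma 3.58.1 (log2 FPKM with a pseudocount of 1 or 0.1) were alternatives. log2 CPM used a prior count of 2, and intervals are 95%. Permutation tests were 2-sided. The procedure was tested on simulated data. The alternatives also included size factors, upper quartile normalization, no or a stricter filter, the replicate block, the other factor or a tissue score as covariate, and each steer left out.

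Named genes are the 9 members, up to 5 genes with the smallest p past an adjusted p of 0.05 in each other list, and the 3 genes most correlated with each member. The results of some genes that this rule takes in are not reported here. Genes named in small counts, and a list of ileal bile acid genes, were chosen after their values were seen. The lists were other membrane, cytosolic, lysosomal and pancreatic peptidases, transporters, enterocyte transcription factors, and markers of villus enterocytes, epithelium, B cell follicles, T cells, macrophages, endothelium, smooth muscle, crypt and ileum. The members and lists were chosen with earlier results of these data known. Samples are separate steers, and the labels assign them to 6 blocks by body weight because of limited stall space, so the block pairs steers by design. The correlation of deviations averaged 0.0331 over 30 pairs of the same block (-0.464 to 0.387) and -0.00641 over 151 pairs of different blocks.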

Additional observations from a re-analysis of the deposited data

Results flagged for a closer look

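Dixon's test at the 95% level was applied to log2 values of the 9 peptidases and to the villus enterocyte and B cell follicle scores in each treatment, 44 sets of 5 or 6 steers in all, of which chance flags about 1 in 20. It singled out 1, or 2.27% of the sets. Casein replicate 3 had a B cell follicle score of 6.82 (mean log2 CPM), and the nearest casein steer was at 3.22. In the same steer NAALADL1 was at 0.651 CPM, the lowest of the 22 steers. None of the 36 sets of peptidase values was singled out, although NAALADL1 in GLP-2 replicate 3 was 14.1 times the next steer.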

How the results depend on the processing

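Between casein and water, and in the 4 contrasts within an infusion or injection and the interaction apart from the exception given next, 0 of 9 peptidases were called in every fit without 1 steer (22 each) and under every alternative run, the replicate block among them. The exception was GLP-2 against control, from 0 to 3 members called over the fits without 1 steer, with 3 without control replicate 2. Between GLP-2 and BSA, 3 peptidases were called in the main fit, 6 by DESeq2, 6 by limma on log2(FPKM + 1), 6 by limma on log2(FPKM + 0.1), 3 with upper quartile normalization, 4 with DESeq2's size factors, 4 with at least 10 counts in every steer (where ENPEP and NAALADL1 were not tested), 1 without a filter, 2 with the infusion as covariate and 0 with the replicate block, the villus enterocyte score or the B cell follicle score. Over the fits without 1 steer the count ran from 0 to 9 and was 0 in 10 of 22. Every peptidase tested was higher with GLP-2 in each of these.

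The sign of an estimate that passed no test turned in some alternatives, and the cause was not tested. For casein against water limma gave 0.15 (pseudocount 1) and 0.16 (0.1) for ANPEP and 0.23 and 0.24 for ACE, the villus enterocyte score as covariate gave 0.020 for ACE, and the follicle score gave -0.063 for DPP4 and -0.12 for TMPRSS15. For casein against control the replicate block gave 1.74 for ENPEP and 0.077 for TMPRSS15, and limma 1.13 and 0.22. For casein + GLP-2 against casein limma gave -0.32 for ENPEP. For the interaction MEP1B was 0.024 by DESeq2, 0.024 with its size factors and 0.043 without a filter.

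With 1 steer left out, log2 fold changes that turned ran, for casein against water, from -1.14 to 0.015 (ANPEP), -0.063 to 0.33 (DPP4), -0.43 to 0.14 (ACE) and -0.14 to 0.52 (TMPRSS15). For casein against control they ran from -0.63 to 0.41 (DPP4), -0.49 to 2.96 (ENPEP), -0.17 to 1.04 (MEP1A), -0.020 to 1.13 (ACE), -0.19 to 0.77 (XPNPEP2) and -0.40 to 0.61 (TMPRSS15), the highest each without control replicate 2. For casein + GLP-2 against GLP-2 they ran from -0.74 to 0.00019 (ACE) and -0.038 to 0.72 (TMPRSS15), for casein + GLP-2 against casein from -1.20 to 0.43 (ENPEP), and for the interaction from -0.020 to 1.00 (DPP4), -0.41 to 0.37 (MEP1B) and -0.28 to 0.81 (TMPRSS15). Counts were lowest for ENPEP, at 6 in control replicate 5, and for NAALADL1, at 8, which limits the precision of these genes.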
